A study of Mus musculus with 4 samples.

Results

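Immediate early genes are transcribed within minutes of a stimulus, without new protein synthesis, and their RNA is short-lived. The 10 genes described here are Egr1 and Egr2, the AP-1 genes Fos, Fosb, Jun and Junb, and Dusp1, Nr4a1, Ier2 and Atf3. They were chosen by name, with their levels in these libraries already known, out of 22558 gene symbols listed in each library. The deposited levels of all 4 libraries entered that choice, so every value below is a description and carries no test.

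Whole retinas of Fezf2 knockout (KO) mice, labelled Fezf2KO, and of control littermates, labelled wildtype, were sequenced at postnatal day 14 (P14) and postnatal day 7 (P7). All mice were on the background that the labels spell C57/BL/6J and were kept under SPF conditions with normal feeding. There was 1 library per genotype and age, 4 in all, with no replicate of any group. The labels do not say how the Fezf2 allele was inactivated, which sex the mice were or whether retinas were pooled. Fezf2, a zinc-finger transcription factor gene, was at 0.126 FPKM in the KO library and 4.02 FPKM in the control library at P14, and at 0.592 FPKM in the KO library and 8.32 FPKM in the control library at P7. FPKM counts fragments relative to transcript length and sequencing depth, so levels can be compared between genes. The cone photoreceptor gene Arr3, at 11.3 to 40.9 FPKM, and the Mueller glia gene Rlbp1, at 179 to 303 FPKM, marked all 4 libraries as retina.

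Each level was deposited with a lower and an upper bound. A difference is called beyond counting error here when the bounds of the 2 libraries compared do not overlap. The bounds say nothing of the spread between mice, dissections or library preparations, which 1 library per group cannot show. Log2 differences were taken between log2(FPKM + 1) values, a scale that shrinks the differences of low genes, and ranges in parentheses after them run between the extreme combinations of the bounds. The share of all genes called in the same way is given as background, over 12669 genes with a mean of at least 1 FPKM, and 8 of the 10 genes met that floor. Egr2, with a mean of 0.0176 FPKM, and Fosb, with a mean of 0.309 FPKM, did not. As whole tissue was used, fewer cells of a type and less RNA per cell cannot be told apart.

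In neurons, calcium entry and growth factors act through the ERK and CaM kinase cascades on the transcription factors CREB and SRF, which sit at immediate early promoters before the stimulus comes. The proteins made then switch on later genes, and some of them, DUSP1 among them, shut the cascade off again. In the retina, Egr1 and Fos are known for their induction by light in amacrine and other inner retinal neurons. They are also known for induction in Mueller glia after injury or growth factor treatment.

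The promoters of 6 of these genes, whose levels behaved differently in the libraries, are shown for their sequence. Whether sites in them bear on these levels was not tested. RefSeq promoter sequences on GRCm38.p6, a later build than that of the expression files, were found for 8 of the 10 genes, all but Egr1 and Ier2. The lines below give the 250 bases before the annotated start of transcription, with the first 4 genes being higher in the KO library at P14 beyond counting error, and Jun and Atf3 not. Capitals mark matches, on either strand, to the cAMP response element (CRE) TGACGTCA, its half-site TGACG, the AP-1 site TGANTCA, the AP-1-like site TGACATCA, the EGR site GCGNGGGCG, the CArG box bound by SRF and the TATA box TATAAA. The half-site lies within the full CRE.
Dusp1 (chr17:26508473-26508722, minus strand): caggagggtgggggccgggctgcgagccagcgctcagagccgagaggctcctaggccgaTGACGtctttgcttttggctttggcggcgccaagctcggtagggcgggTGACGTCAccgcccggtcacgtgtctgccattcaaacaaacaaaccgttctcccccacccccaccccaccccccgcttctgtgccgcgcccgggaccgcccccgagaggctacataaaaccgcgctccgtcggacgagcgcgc
Fos (chr12:85473640-85473889, plus strand): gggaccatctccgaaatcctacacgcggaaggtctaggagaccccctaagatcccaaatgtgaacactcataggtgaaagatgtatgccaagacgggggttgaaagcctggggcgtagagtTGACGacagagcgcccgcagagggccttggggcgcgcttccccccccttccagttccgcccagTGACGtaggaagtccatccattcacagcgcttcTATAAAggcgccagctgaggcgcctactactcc
Nr4a1 (chr15:101266596-101266845, plus strand): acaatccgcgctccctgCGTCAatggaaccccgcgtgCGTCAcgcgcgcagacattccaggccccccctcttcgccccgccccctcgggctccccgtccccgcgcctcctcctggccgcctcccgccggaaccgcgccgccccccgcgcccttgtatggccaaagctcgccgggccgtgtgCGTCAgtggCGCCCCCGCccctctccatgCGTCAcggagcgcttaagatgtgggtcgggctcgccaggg
Junb (chr8:84978749-84978998, minus strand): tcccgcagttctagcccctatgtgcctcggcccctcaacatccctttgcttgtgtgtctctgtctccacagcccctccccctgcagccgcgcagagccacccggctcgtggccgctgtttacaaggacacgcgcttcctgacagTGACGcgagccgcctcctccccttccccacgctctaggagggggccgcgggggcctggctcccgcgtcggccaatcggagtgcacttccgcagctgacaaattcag
Jun (chr4:95052223-95052472, minus strand): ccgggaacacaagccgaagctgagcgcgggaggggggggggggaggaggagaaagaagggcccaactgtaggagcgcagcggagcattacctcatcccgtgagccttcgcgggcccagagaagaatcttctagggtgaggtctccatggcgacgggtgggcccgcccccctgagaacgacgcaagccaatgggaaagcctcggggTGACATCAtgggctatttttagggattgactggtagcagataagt
Atf3 (chr1:191183334-191183583, minus strand): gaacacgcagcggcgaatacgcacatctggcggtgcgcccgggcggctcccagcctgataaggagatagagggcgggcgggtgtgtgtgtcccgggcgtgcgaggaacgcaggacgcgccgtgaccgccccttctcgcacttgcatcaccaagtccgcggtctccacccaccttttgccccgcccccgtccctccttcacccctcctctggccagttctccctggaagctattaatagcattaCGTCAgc

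The CRE half-site TGACG was present in 6 of the 8 promoters at the first listed start, against 17.9% of 27025 promoters with 1 start per gene. Egr2 had it at other listed starts. The 27025 promoters were those of all genes with a sequence, not of the 12669 background genes alone. They were not matched for base composition, so an excess over them is no result about these genes. The full CRE TGACGTCA was found in the Dusp1 promoter alone of the 8, where it begins at position -143 from the start site, and in 1.62% of all promoters. Nr4a1 had 4 half-sites, the most of the 8 at a first listed start, whereas Atf3 had 1 at position -7. Jun had no half-site in this window and carried the AP-1-like site TGACATCA at position -45, a sequence found in 3.02% of all promoters. The EGR site was found in the Nr4a1 and Fosb promoters, 2 of 8, against 4.65% of all promoters. The other sites searched for were rare or absent at the first listed start. The AP-1 site was found in 0 of 8, against 6.87% of all promoters. The TATA box was found in 1 of 8, Fos, against 13% of all promoters. The CArG box was found in 0 of 8, against 1.4% of all promoters, and Egr2 had it at other listed starts. Only exact matches within the 250 bases were counted. Sites further upstream or with a changed base were not searched for, so an absence here does not show that a promoter lacks the site. Such matches of letters describe the window and do not show that a factor bound there.

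At P14 most of the immediate early genes were higher in the KO retina. Of the 10 genes 7 were higher beyond counting error, 0 were lower and 3 had overlapping bounds, where 7.48% of all genes were higher and 8.06% lower by the same rule. Those shares are over genes at or above the floor. Of the 8 genes that met it, 6 were higher and 0 lower, with a median log2 difference of 0.80. This contrast was known when the genes were chosen, so nothing follows from that excess. The median log2 difference of the 10 genes was 0.53, or 0.64 without Egr2, beside 0.004 for all genes. At least 1.5-fold higher on this scale were 5 of the 10, where 0.426% of all genes were higher and 0.797% lower by that much. At least 2-fold higher were 2 of the 10, Egr1 and Dusp1, where 0.0553% of all genes were higher and 0.213% lower. That count depends on the 1 FPKM added, since with 0.1 FPKM added Fos (1.06) and Nr4a1 (1.03) also passed 1 on the log2 scale. Summed over the 10 genes, the level was 124 FPKM in the KO library and 67.9 FPKM in the control library.

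**Figure D1:**
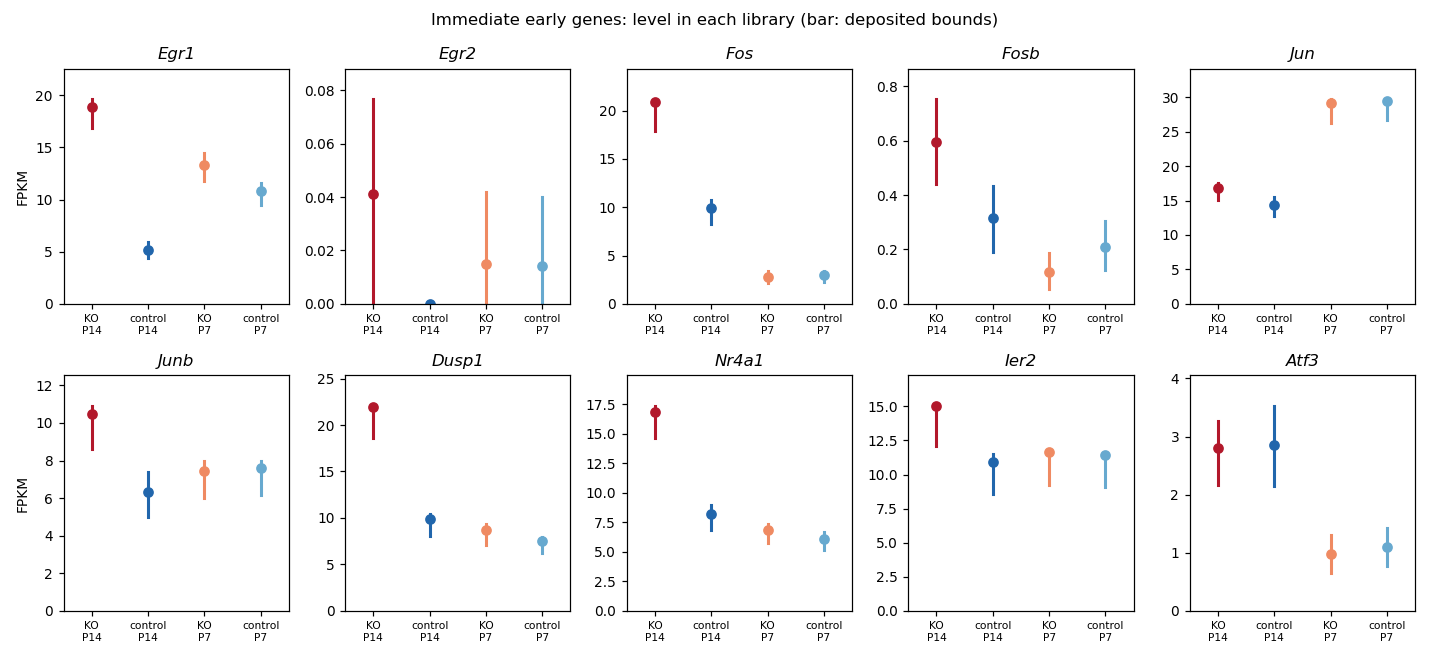
Level in FPKM of each of the 10 genes in the KO and control libraries at P14 and at P7, 1 library each. Points are deposited levels and bars run between the deposited bounds. Egr1, Fos, Dusp1 and Nr4a1 stand at 16.8 to 21.9 FPKM in the KO P14 library, against 5.15 to 9.94 FPKM in the control P14 library.

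Egr1, a zinc-finger transcription factor gene at the head of the response, differed most. At P14 it was at 18.9 FPKM in the KO library (deposited bounds 16.9 to 19.6) and 5.15 FPKM in the control library (4.35 to 5.88), a log2 difference of 1.69 (1.38 to 1.95). At P7 it was at 13.3 FPKM in the KO library (11.7 to 14.4) and 10.8 FPKM in the control library (9.49 to 11.6), a log2 difference of 0.28 (0.02 to 0.56). Its 4 levels were all apart, with the KO P14 library highest and the control P14 library lowest, so that the P7 libraries of both genotypes lay between the P14 libraries. Only 1 of the 12669 genes, Rps27, had a larger log2 difference at P14, and Rps27 shares sequence with related copies, so its level is uncertain. The files place Egr1 at bases 35020861 to 35024610 of chromosome 18 (mm9).

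Its relative Egr2, a gene of hindbrain patterning and myelinating Schwann cells, was near the limit of detection. It was at 0.0412 FPKM in the KO library and listed at 0 in the control library at P14, and at 0.0150 FPKM in the KO library and 0.0144 FPKM in the control library at P7. The lower bound was 0 in every library, and no fold is given.

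Fos, which encodes the AP-1 subunit that must pair with a JUN protein, had overlapping levels at P7 and separate ones at P14. It was at 20.9 FPKM in the KO library (17.9 to 21.2) and 9.94 FPKM in the control library (8.22 to 10.7) at P14, a log2 difference of 0.9999 (0.69 to 1.27). At P7 it was at 2.81 FPKM in the KO library (2.18 to 3.43) and 2.94 FPKM in the control library (2.29 to 3.45). The 2 P7 levels overlapped, and both P14 levels lay above them. Fosb, which also pairs with JUN proteins, was low, at 0.594 FPKM in the KO library (0.442 to 0.753) and 0.315 FPKM in the control library (0.190 to 0.434) at P14. It was at 0.116 FPKM in the KO library and 0.211 FPKM in the control library at P7, with overlapping bounds. The P14 bounds of Fosb missed each other by less than 0.01 FPKM, and its call was lost on the TPM scale. The pseudocount hides most of the change of so low a gene: the P14 log2 difference was 0.28 with 1 FPKM added and 0.74 with 0.1 FPKM added.

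The JUN partners did not move as one. Junb, whose protein is a weaker activator than JUN and can oppose it, was at 10.5 FPKM in the KO library (8.61 to 10.9) and 6.34 FPKM in the control library (5.01 to 7.37) at P14, a log2 difference of 0.64 (0.20 to 0.99). At P7 it was at 7.45 FPKM in the KO library and 7.60 FPKM in the control library, with overlapping bounds. Jun, the founding AP-1 gene and a target of JNK signalling, was at 16.8 FPKM in the KO library (15.1 to 17.5) and 14.4 FPKM in the control library (12.7 to 15.5) at P14, where its bounds overlapped. At P7 it was at 29.2 FPKM in the KO library and 29.5 FPKM in the control library. Jun thus had the highest level of the 10 genes in 3 of the 4 libraries, and the KO P14 library, where Dusp1, Fos and Egr1 stood above it, was the exception.

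Dusp1 encodes a nuclear phosphatase that inactivates MAP kinases and so ends the response that induces it. It was at 21.9 FPKM in the KO library (18.6 to 22.0) and 9.83 FPKM in the control library (8.01 to 10.4) at P14, a log2 difference of 1.08 (0.78 to 1.35). At P7 it was at 8.68 FPKM in the KO library (7.11 to 9.29) and 7.56 FPKM in the control library (6.17 to 7.98), with overlapping bounds. The KO P14 level stood clear of the other libraries, whose levels lay between 7.56 and 9.83 FPKM.

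Nr4a1 encodes an orphan nuclear receptor. It was at 16.8 FPKM in the KO library (14.7 to 17.3) and 8.17 FPKM in the control library (6.86 to 8.97) at P14, a log2 difference of 0.96 (0.65 to 1.22). At P7 it was at 6.84 FPKM in the KO library (5.76 to 7.39) and 6.10 FPKM in the control library (5.12 to 6.66). As with Dusp1, the KO P14 library was the one that stood apart. The nuclear protein gene Ier2 was at 15.0 FPKM in the KO library and 10.9 FPKM in the control library at P14 (0.42, from 0.06 to 0.74), and at 11.7 FPKM in the KO library and 11.4 FPKM in the control library at P7. The KO P14 level of Ier2 lay slightly above its own upper bound, a feature of 1809 to 2243 loci in each library, so bounds were compared only with bounds.

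Atf3, a stress-induced transcription factor gene of the ATF and CREB family, showed no call in either genotype comparison. It was at 2.80 FPKM in the KO library (2.17 to 3.26) and 2.86 FPKM in the control library (2.15 to 3.52) at P14, and at 0.982 FPKM in the KO library and 1.10 FPKM in the control library at P7. Its bounds overlapped between the genotypes at both ages, with a log2 difference at P14 of -0.02 (-0.51 to 0.44), a range that leaves room for a change of about the size seen for Ier2.

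**Figure D2:**
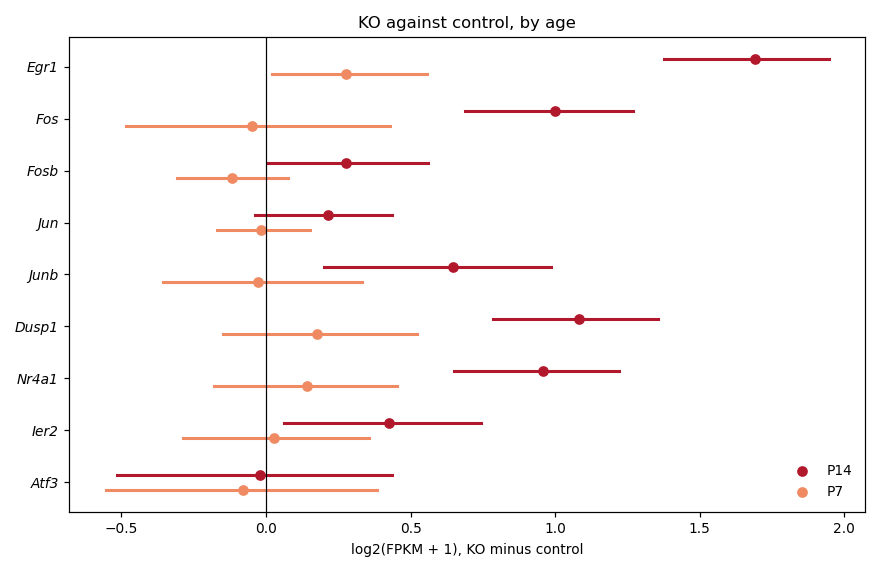
Log2(FPKM + 1) in the KO library minus that in the control library at P14 and at P7, for the 9 genes other than Egr2. Points are differences and bars run between the extreme combinations of the deposited bounds. At P14 the bars of 7 genes lie above 0, from Fosb at 0.28 to Egr1 at 1.69, and at P7 that of Egr1 alone, at 0.28.

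At P7 the 10 genes were split, 5 above and 5 below the control library. Only Egr1 was beyond counting error, 1 of 10 genes where 7.17% of all genes were higher and 6.09% lower, and its call was lost when levels were rescaled to a common library total (TPM). The log2 differences ran from -0.12 for Fosb to 0.28 for Egr1, the median was -0.01 beside 0.01 for all genes, and 0 of the 10 reached 1.5-fold (0.268% of all genes higher, 0.568% lower) or 2-fold (0.071% higher, 0.166% lower). The signed log2 difference, KO minus control, lay further up at P14 than at P7 by 1.41 for Egr1, 1.05 for Fos, 0.90 for Dusp1 and 0.82 for Nr4a1. For Atf3 it was below 0 and its bounds overlapped at both ages (-0.02 at P14, -0.08 at P7). These are differences between single libraries and were not tested.

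Between the ages, 8 of the 10 genes were higher and 1 lower at P14 than at P7 in the KO retina, where 29% of all genes were higher and 39.3% lower. In the control retina 4 were higher and 2 lower, where 27.3% of all genes were higher and 38% lower. Of the 8 genes at or above the floor, 7 were higher and 1 lower in KO, and 4 higher and 2 lower in control retinas. By the 1.5-fold rule 4 were higher and 1 lower in KO (17.3% and 21.4% of all genes), and 2 higher and 2 lower in control retinas (16% and 20.8%). By the 2-fold rule 3 were higher and 0 lower in KO (7.72% and 7.9%), and 1 higher and 0 lower in control retinas (7.07% and 7.05%). Each of these comparisons shares a library with the genotype comparison at P14, so they are other views of the same levels. The median log2 difference of the 10 genes was 0.50 in the KO and 0.05 in the control retina, against -0.08 and -0.09 for all genes.

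Some genes differed between the ages in the same direction in both genotypes. Fos was higher at P14 by 2.52 in KO and 1.47 in control retinas on the log2 scale. Atf3 was higher by 0.94 in KO and 0.88 in control retinas, and Jun was lower, at -0.76 in KO and -0.99 in control retinas, each beyond counting error. Dusp1 (1.24 in KO, 0.34 in control) and Nr4a1 (1.18 in KO, 0.37 in control) were also higher at P14 in both, but both calls in the control retina were lost on the TPM scale. Egr1 went opposite ways, higher at P14 in KO retinas (0.48, from 0.21 to 0.70) and lower in control retinas (-0.94, from -1.23 to -0.61). Junb, Ier2 and Fosb were higher at P14 beyond counting error in the KO retina, and their bounds overlapped in the control retina. The Ier2 call in the KO retina was lost on the TPM scale.

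**Figure D3:**
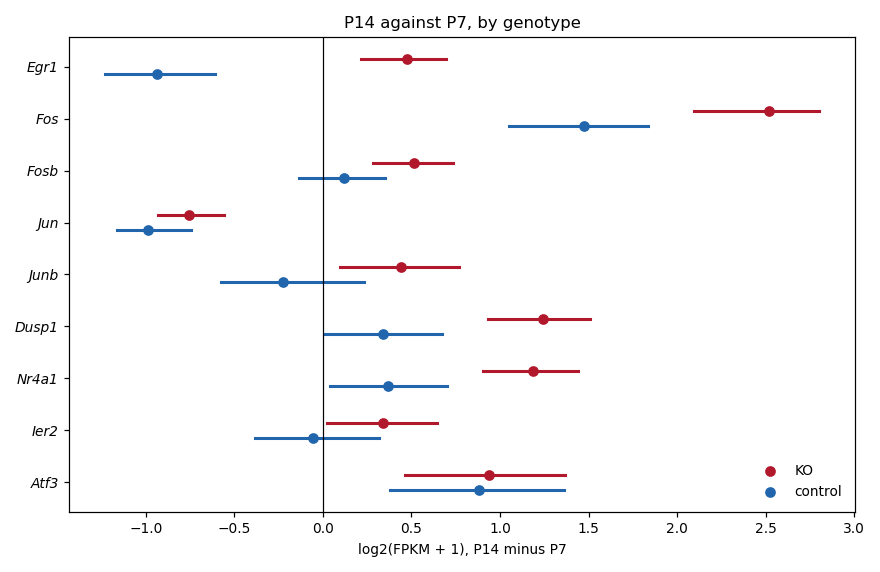
Log2(FPKM + 1) at P14 minus that at P7 in KO and in control retinas, for the 9 genes other than Egr2, with bars between the extreme combinations of the deposited bounds. Jun lies below 0 in both genotypes and Fos and Atf3 above it, while Egr1 lies at 0.48 in KO and at -0.94 in control retinas.

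Other immediate early genes, most of them transcription factor genes, from a list of 24, leaned the same way at P14. That list too was drawn up with earlier results of these data known, so nothing follows from its excess. Of the 16 with a mean of at least 1 FPKM, 6 were higher in the KO library beyond counting error and 0 lower, where 7.48% of all genes were higher and 8.06% lower. Their median was 0.22. The 6 were Cebpd at 6.06 FPKM in KO and 3.53 FPKM in control retinas (0.64), Fosl2, another FOS relative, at 1.87 in KO against 1.19 FPKM in control (0.39), Jund, the third JUN gene, at 47.0 in KO against 36.7 FPKM in control (0.35), the survival gene Ier3 at 62.5 in KO against 49.4 FPKM in control (0.33), Srf at 8.39 in KO against 6.63 FPKM in control (0.30) and Bhlhe40 at 21.4 in KO against 18.4 FPKM in control (0.20). Without the floor 9 of the 24 were higher and 0 lower. Of the 8 genes below it, Egr3, Fosl1, Klf4, Maff and Csrnp1 had overlapping bounds. The other 3 were named after their values were seen: Nr4a3 was at 0.834 FPKM in KO and 0.213 FPKM in control retinas, Npas4, a gene induced by neuronal activity, at 0.678 in KO against 0.250 FPKM in control, and Egr4 at 0.659 in KO against 0.216 FPKM in control, each beyond counting error. At P7, 3 of the 16 were higher beyond counting error, Klf10, Nr4a2 and Jund, and 0 lower, where 7.17% of all genes were higher and 6.09% lower.

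Rapidly induced genes that are not transcription factors followed the same direction at P14. Their list was also drawn up with earlier results of these data known, so nothing follows from that excess either. Of 28 such genes above the floor, from a list of 31, 11 were higher in the KO library at P14 beyond counting error and 0 lower, with a median of 0.25, where 7.48% of all genes were higher and 8.06% lower. At P7 2 of the 28 were higher and 1 lower, with a median of 0.06, a count near the shares of all genes (7.17% higher, 6.09% lower). Ctgf, which encodes a matrix-associated growth factor, was at 17.2 FPKM in KO and 9.19 FPKM in control retinas (0.83), and Sik1, a kinase that restrains CREB coactivators, at 5.29 in KO against 2.60 FPKM in control (0.80). Of the inhibitors of MAP kinase signalling in the list, Spry4 was at 4.44 FPKM in KO and 2.37 FPKM in control retinas (0.69), Dusp5 at 20.4 in KO against 12.8 FPKM in control (0.63) and Dusp4 at 25.6 in KO against 16.8 FPKM in control (0.58), while the bounds of Dusp6 (0.20), Spry2 (0.14) and Dusp10 (0.15) overlapped, as did those of Dusp2, which was below the floor. Btg2, an antiproliferative gene, was at 38.5 FPKM in KO and 28.1 FPKM in control retinas (0.44). The synaptic scaffold gene Homer1 (-0.20) and the Egr corepressor gene Nab1 (-0.04) were the 2 genes of the 28 below the control library, both with overlapping bounds.

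Of 35 upstream kinase and transcription factor genes 3 were higher and 3 lower beyond counting error at P14, with a median of 0.01. These counts are near the shares of all genes, 7.48% higher and 8.06% lower, so the single calls are values and no result about the list. Mapk3, an ERK gene, and the SRF partner genes Elk1, Elk3 and Elk4 had overlapping bounds. Creb1 was at 8.65 FPKM in KO and 9.76 FPKM in control retinas (-0.16), Camk4 at 3.44 in KO against 4.67 FPKM in control (-0.35) and Mef2c at 4.19 in KO against 6.01 FPKM in control (-0.43), these 3 being lower. Camk2a (0.28), Prkaca (0.19) and Rps6ka2 (0.16) were higher.

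**Figure D4:**
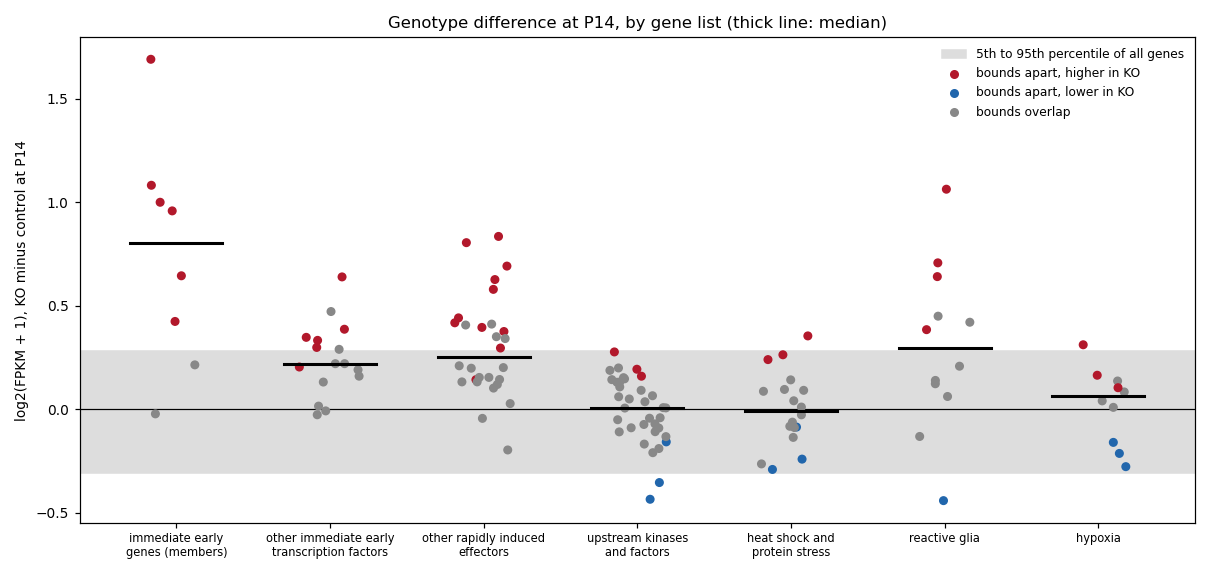
Log2(FPKM + 1) in the KO library minus that in the control library at P14, 1 point per gene with a mean of at least 1 FPKM (so without Egr2 and Fosb), by gene list. Colours show whether the deposited bounds were apart, the grey band holds the middle of all genes (percentiles 5 to 95, -0.31 to 0.28) and thick lines are medians. Medians are over the points shown. The immediate early genes, the other immediate early transcription factors (a list that also holds the survival gene Ier3) and the other rapidly induced genes have no point called lower.

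Counts for other gene groups in the same P14 libraries are to be read against the same shares of all genes, 7.48% higher and 8.06% lower. Reactive glia genes had 4 of 12 members higher and 1 lower beyond counting error (median 0.30), with Gfap at 20.6 FPKM in KO and 9.32 FPKM in control retinas (1.06), the metallothionein genes Mt1 (0.71) and Mt2 (0.64) and Vim (0.38) higher and A2m (-0.44) lower. The Mueller glia markers Rlbp1 (0.01) and Slc1a3 (-0.09) had overlapping bounds, and 1 of 5 markers, Glul (0.08), was higher. Heat shock and protein stress genes had 3 of 18 higher and 3 lower (median -0.01), and Hspa1a, the inducible heat shock gene, was at 13.3 FPKM in KO and 12.9 FPKM in control retinas. Hypoxia genes had 3 of 10 higher and 3 lower (median 0.06). Without the floor, 5 of 17 reactive glia genes without a failed level were higher and 1 lower, with Edn2 (0.63) added. Likewise 4 of 12 hypoxia genes were then higher and 3 lower, with Adm (0.84) added.

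At P14, against the same shares, the KO library held less RNA of blood and pigment epithelium markers. All 5 erythroid genes were lower beyond counting error, summing to 356 FPKM in KO and 1180 FPKM in control retinas at P14, and to 339 FPKM in KO and 291 FPKM in control retinas at P7. Alas2, the erythroid haem synthesis gene, was at 1.93 FPKM in KO and 4.23 FPKM in control retinas at P14, while the haemoglobin genes are near-identical copies whose single levels are uncertain. Of 8 pigment epithelium genes 6 were lower and 0 higher at P14, with a sum over the list of 184 FPKM in KO and 218 FPKM in control retinas, most of it from Otx2, which the neural retina also expresses. At P7 4 of the 8 were higher and 0 lower (7.17% and 6.09% of all genes), with sums of 354 FPKM in KO and 312 FPKM in control retinas. Microglia genes had 0 of 5 beyond counting error at P14, and endothelial genes 1 of 5 higher (Cldn5, 0.48) and 1 lower (Kdr, -0.24). Of the lens markers Cryaa was at 0.0779 FPKM in KO and 4.63 FPKM in control retinas, and Mip, Lim2 and Bfsp1 were below 0.4 FPKM in both. Ganglion cell markers were higher in the KO library in 3 of 3 cases (Pou4f1 0.31, Rbpms 0.30, Nefl 0.15) and bipolar markers lower in 3 of 4 (among them Cabp5, -0.45, and Grm6, -0.26). Photoreceptor markers were higher in 4 of 7, among them the cone opsin gene Opn1sw (0.18), and lower in 1, the cone arrestin gene Arr3 (-0.62). Amacrine markers were lower in 1 of 3 (Gad1, -0.16), and neither of the 2 horizontal cell markers was called. Of 2 astrocyte markers above the floor, Gfap, also counted among the reactive glia genes, was higher. At P7, where 7.17% of all genes were higher and 6.09% lower, 3 of 3 amacrine markers were lower in the KO library. Horizontal cell markers were higher there in 2 of 2 and ganglion cell markers in 2 of 3. Bipolar markers were higher in 1 of 4 and lower in 1, and photoreceptor markers higher in 2 of 7 and lower in 2. The part of these differences in the levels of the immediate early genes was not tested.

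The genes whose pattern over the 4 libraries was most like the median pattern of the 10 genes were Fxyd7, Ccs, Ppap2c, Hspbp1, Ddit4, Vstm2l, Jakmip1 and Arhgap27. Likeness was the Euclidean distance between centred log2(FPKM + 1) levels over 4 libraries, among 6491 genes with a mean of at least 2 FPKM and a range of at least 0.5 on the log2 scale. The nearest, Fxyd7, a regulator of the sodium pump, was at a distance of 0.06, with 54.3 FPKM in KO and 37.6 FPKM in control retinas at P14 and 38.3 FPKM in KO and 37.6 FPKM in control retinas at P7. Ddit4, an inhibitor of mTOR signalling, was at 88.2 FPKM in KO and 64.0 FPKM in control retinas at P14 and at 62.3 FPKM in KO and 58.7 FPKM in control retinas at P7. With 4 points per gene and 6491 candidates, some close matches are to be had by number alone.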

How the data were processed

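Total RNA of whole retina was reverse-transcribed with random primers, and fragments of about 200 bp were read as 36-base single ends, per the labels' protocols. The FPKM values and their bounds were deposited by the authors, and the submitters' processing notes name the tools CASAVA (version 1.8.2), TopHat2 (2.0.8b), Cufflinks (2.1.1) and the mm9 build. No source here gives the annotation, the options or a strand marking. Loci of one symbol were summed. None of the 10 genes overlapped another listed locus or stood at several loci. Small RNAs, loci under 300 bases and failed levels were left out of the 12669 background genes. Read counts were not used here. Taking each bound as 2 standard deviations from the midpoint of the bounds, the 10 genes rested on 13 (Fosb) to 1368 (Jun) fragments where the lower bound was above 0. The bounds cover counting error only, and amplified reads are not independent molecules.

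With 1 library per group no test was run. The calling step was run on simulated counts whose bounds were set from the same counting error. That check of the code says nothing of the deposited bounds or of the spread between mice. Python 3.11.15, pandas 2.3.3 and numpy 2.4.6 were used. The genes and lists were chosen with earlier results of these data known. Named from each list were up to 6 genes above 1 FPKM with the largest P14 genotype difference beyond counting error (up to 3 for cell markers, with others given as defining markers), and the 8 genes most alike. Genes outside that rule are named where a count is small or where they define a pathway. Alternatives were other call rules, pseudocounts, scalings and floors, and the median without Egr2, the last chosen after seeing the data. Some genes of the lists are not reported here by name.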

Additional observations from a re-analysis of the deposited data

Results flagged for a closer look

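Several genes differed in opposite directions, each beyond counting error, between the ages or the genotypes. With 1 library per group these differences were not tested. Egr1 was higher at P14 than at P7 in KO retinas (0.48) and lower in control retinas (-0.94), a difference of 1.41 on the log2 scale. Btg2 was higher in KO than in control retinas at P14 (0.44) and lower at P7 (-0.12), a difference of 0.57. Hspa5, an endoplasmic reticulum chaperone gene, was lower in KO than in control retinas at P14 (-0.29) and higher at P7 (0.26), a difference of -0.55, which is also the difference between its age changes. Glul, the glutamine synthetase gene of Mueller glia, was slightly higher in KO than in control retinas at P14 (0.08) and lower at P7 (-0.15), a difference of 0.23.

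Among markers of neighbouring tissue, Cryaa was lower in KO than in control retinas at P14 (-2.38) and higher at P7 (2.27), a difference of -4.66. Dct differed likewise (-0.68 at P14, 0.37 at P7), by -1.04. For both genes the age changes also had opposite signs in the genotypes. The other lens markers, Mip, Lim2 and Bfsp1, had overlapping bounds between the genotypes at both ages. Tyr was lower at P14 than at P7 in KO retinas (-0.54) and higher in control retinas (0.41), a difference of -0.95. Hba-a2, whose near-identical copy Hba-a1 makes its level uncertain, was at 0.0186 FPKM in KO and 40.1 FPKM in control retinas at P14, and at 22.8 FPKM in KO and 0.0201 FPKM in control retinas at P7, a difference of -9.88.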

How the results depend on the processing

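The median of the 10 genes at P14 stayed above 0 under each alternative tried, while the number called depended on the rule. Of the 7 genes called higher in KO at P14, a 2-fold rule left 2 and bounds 2 times as wide left 4. The 1 gene called higher at P7, Egr1, became 0 under the 1.5-fold and 2-fold rules, with bounds 2 times as wide and on a TPM scale. For P14 against P7 in KO the 8 called higher became 4 with the 1.5-fold rule, 3 with the 2-fold rule and 4 with wider bounds, and the 1 called lower became 0 with the 2-fold rule. In control the 4 called higher became 2, 1 and 1 under these rules and 2 on a TPM scale, and the 2 called lower became 0 with the 2-fold rule. The median at P14 was 0.96 over genes with a mean of at least 5 FPKM, and that of P14 against P7 in KO was 0.89 with a pseudocount of 0.1 FPKM. Rescaling to TPM also removed the P14 call of Fosb and the KO age call of Ier2, and median-ratio scaling changed no call of the 10 genes. Over genes with a mean of at least 5 FPKM the medians nearest 0 changed sign, to 0.03 at P7 and -0.06 for age in control. No library could be left out, since each is the only one of its group. No paired analysis was possible because each group had 1 library, so the groups share a single replicate number. A fit of genotype with age as a block, which would use the ages as replicates, was not run.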

Other observations

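A few genes of the lists around the immediate early response differed between the ages in both genotypes, each beyond counting error. Such calls were common among all genes. At P14 29% were higher and 39.3% lower than at P7 in KO retinas, and 27.3% higher and 38% lower in control retinas. Trib1, a pseudokinase gene, was at 17.1 FPKM at P14 and 123 FPKM at P7 in KO retinas, and at 15.6 FPKM at P14 and 107 FPKM at P7 in control retinas. Klf10 was at 5.05 FPKM at P14 and 21.9 FPKM at P7 in KO retinas, and at 4.20 FPKM at P14 and 17.2 FPKM at P7 in control retinas. In the other direction, Map2k1, the gene of the ERK kinase MEK1, was at 53.8 FPKM at P14 and 16.0 FPKM at P7 in KO retinas, and at 55.3 FPKM at P14 and 15.8 FPKM at P7 in control retinas. The circadian and stress-responsive gene Bhlhe40 was at 21.4 FPKM at P14 and 6.23 FPKM at P7 in KO retinas, and at 18.4 FPKM at P14 and 5.16 FPKM at P7 in control retinas. These 4 genes were named after their values were seen.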
